A study of Mus musculus with 19 samples.

Results

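Very long neural genes are genes whose transcribed region extends over very large stretches of the genome, nearly all of it intron, and which act mainly in cell adhesion, synapse formation and axon guidance. The 49 members were taken from a list of gene symbols that was chosen with earlier results of these data known. They were matched by Ensembl identifier to the GENCODE M21 annotation of the mouse genome (GRCm38/mm10). All 49 of 49 were found among the 51912 genes in the count tables, and each had counts in every library. Their genomic spans ran from 565.3 kb (Fam155a) to 2271 kb (Ptprd) with a median of 1139 kb, against a median of 30.2 kb over the 10911 protein-coding genes tested in the first comparison. Of the members, 38 spanned 1000 kb or more and 11 spanned less.

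RNA polymerase II needs many hours to transcribe a gene of this size, so a full-length transcript of such a gene is made slowly and much of its nascent RNA is intronic. Long genes of this kind are used preferentially by neurons, and their transcription depends on the release of torsional stress by topoisomerases. Several of them coincide with common fragile sites, where late replication of a large transcribed unit favours breakage. INO80 is the catalytic subunit of a chromatin remodeler that slides nucleosomes and that acts in both transcription and repair, and Trp53 encodes the damage-activated transcription factor p53.

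The data were UMI RNA-seq by Click-seq of E13.5 mouse cerebral cortex, with 1 library per embryo, from ribosome-depleted total RNA primed with random hexamers. The 7 ctrl libraries came from embryos labelled as control. The 5 cKO-E libraries came from the Emx1-Cre conditional mutant of Ino80 (Emx1 Cre/+;Ino80 fl/fl), and the 7 dKO-E libraries from the conditional double mutant of Ino80 and Trp53 (with Trp53 fl/fl added to that genotype). All embryos had a mixed C57BL/6 and 129 background. Emx1-Cre recombines in cortical progenitors and their descendants, so interneurons, microglia and vessel cells in the same tissue keep both genes. The ctrl group held 4 females and 3 males from 4 litters, cKO-E held 4 females and 1 male from 5 litters, and dKO-E held 2 females and 5 males from 2 litters. No litter gave both mutants. Batch 1, as the labels number batches without saying what they are, held 4 ctrl, 3 cKO-E and 4 dKO-E libraries, batch 2 held 3, 2 and 2, and batch 3 held 1 dKO-E library alone.

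Counts on genes per library ran from 820915 to 8095810, so 3 counts, the limit that a count of 0 allows, corresponded to 0.371 to 3.65 CPM (counts scaled to a common library size). Between 6.00% and 15.1% of uniquely placed reads lay outside annotated genes, with ctrl H (13.6%) and ctrl I (15.1%) the highest. Mitochondrial genes took 0.332% of the counts in dKO-E A and 0.638% in dKO-E E, the lowest of the 19 libraries. The gene-level count of Ino80 was not lower in the mutants (ctrl 121 ± 7.23 CPM, SD, n = 7, cKO-E 166 ± 17.7, n = 5, dKO-E 186 ± 14.9, n = 7). Only part of the gene is deleted, so this total does not test the deletion. Trp53 stood at 43.8 ± 5.60, 39.2 ± 4.79 and 34.5 ± 4.78 CPM. All 8 neocortex markers were detected in every group, with summed levels of 1200 to 1363 CPM in ctrl, 917 to 1156 in cKO-E and 925 to 1274 in dKO-E.

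Which part of a gene was counted is not given in the sources used here, and the values point to whole gene bodies and not exons alone. Sox2, Neurod1 and Tubb3, each lying wholly inside another annotated gene on the same strand, were counted 0 times in all 19 libraries. Over 10163 protein-coding genes with a ctrl mean of at least 5 CPM, the ctrl level rank-correlated with genomic span (rho = 0.52) and with exon length (rho = 0.48), as a description across genes that share the same libraries. The median level per kb of exon rose from 6.19 CPM in genes under 10 kb to 31.9 CPM in genes of 1000 kb or more. A member's count is therefore read here as mature plus nascent RNA of its whole body. In bulk tissue, fewer cells of a type and less RNA per cell cannot be told apart.

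Exons made up a median of 0.801% of the members' span (range 0.0925% in Fhit to 2.84% in Tenm4), against 16.8% over the tested protein-coding genes. A low share goes with the choice of long genes, since the span is its denominator. They lay on 19 chromosomes, with 8 of them on chromosome 8. Another annotated gene overlapped 48 of the 49, but over a median of only 1.28% of the span. The overlap was largest for Pard3b (14.3%) and reached 12% for Galntl6. How reads in such stretches were counted depends on the strand setting and feature type, which are not given in the sources used here.

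Promoter windows of 300 bases (250 before and 50 after a RefSeq start, GRCm38.p6) existed for 36 of the 49 members, in 59 windows. The 3 windows printed here belong to the members with the smallest p-values (Galntl6 and Cntn5) and to Tenm4, the only member called in the same direction in both mutants at the stricter threshold used here. Each is given 5′ to 3′ on the gene's strand with CG dinucleotides in capitals. The Galntl6 window lies 1013 bases from the start in GENCODE, whereas the other windows lie within 2 bases of theirs.
Cntn5 (chr9:10904726-10905025, minus strand): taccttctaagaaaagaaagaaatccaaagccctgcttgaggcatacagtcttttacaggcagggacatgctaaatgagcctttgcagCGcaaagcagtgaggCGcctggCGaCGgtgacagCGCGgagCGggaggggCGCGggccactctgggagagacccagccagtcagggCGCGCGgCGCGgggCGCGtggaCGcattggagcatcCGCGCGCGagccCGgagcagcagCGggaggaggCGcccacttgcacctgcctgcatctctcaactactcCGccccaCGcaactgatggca
Galntl6 (chr8:58911578-58911877, minus strand): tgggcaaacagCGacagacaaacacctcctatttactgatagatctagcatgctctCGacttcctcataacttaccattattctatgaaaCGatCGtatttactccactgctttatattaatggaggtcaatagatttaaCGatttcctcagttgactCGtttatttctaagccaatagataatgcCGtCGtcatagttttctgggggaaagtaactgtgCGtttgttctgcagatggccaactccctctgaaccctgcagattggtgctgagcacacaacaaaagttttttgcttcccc
Tenm4 (chr7:96170994-96171293, plus strand): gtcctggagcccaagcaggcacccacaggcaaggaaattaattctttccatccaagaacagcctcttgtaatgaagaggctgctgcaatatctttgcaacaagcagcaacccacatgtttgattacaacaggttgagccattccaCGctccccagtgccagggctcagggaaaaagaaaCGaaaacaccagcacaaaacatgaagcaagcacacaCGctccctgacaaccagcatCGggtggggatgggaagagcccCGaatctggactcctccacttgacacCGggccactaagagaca
The windows differ in base composition. The Cntn5 window holds 26 CG dinucleotides and 63.7% G and C, the Galntl6 window 9 and 41.7%, and the Tenm4 window 6 and 52.0%. Across the 59 member windows the median was 12 CG dinucleotides (range 0 to 46), against 7 over all 32851 windows. The core of the YY1 motif, AANATGGC on either strand, was in 0 of the 59 member windows and in 6.05% of all windows. A pair of CATG cores 6 bases apart, as in the p53 response element, was likewise in 0 of 59 and in 0.712% of all windows. These matches describe letters in 300 bases and say nothing of binding.

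In ctrl cortex the members covered a wide range of levels. Per kb of span, the ctrl mean was highest for Auts2, a regulator of transcription and neuronal migration (7.99 CPM per kb), followed by the netrin receptor gene Dcc (5.53), the teneurin gene Tenm4 (4.90) and the neuregulin gene Nrg1 (3.76). Neighbours lower in this order, such as Ctnna2 (2.55) and Pcdh9 (2.54) or Tenm3 (1.10), Tenm2 (1.07) and Dab1 (1.06), differed by less than their spread between libraries. The lowest were Naaladl2 (0.0253) and the alpha-catenin gene Ctnna3 (0.00304). Ordered per kb of exon, Dcc (461 CPM per kb), Ctnna2 (404), Nrg1 (388) and Auts2 (386) led. Library to library, the coefficient of variation in ctrl ran from 5.79% (Macrod2) to 49.6% (Erbb4) with a median of 16.2%, against 12.9% over the 10163 protein-coding genes. The 3 most variable members, Erbb4, Nrxn3 (48.0%) and Ntm (43.4%), differed mainly between ctrl batches: Erbb4 was at 104 CPM in ctrl H.

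Together the members took 4.50% to 5.49% of the counts on genes in ctrl, 5.23% to 5.77% in cKO-E and 3.92% to 4.80% in dKO-E. The mutants did not overlap each other, and ctrl overlapped both. The same held for the protein-coding genes of 500 kb or more that are no members. They took 5.79% to 6.84% in ctrl, 6.47% to 7.38% in cKO-E and 5.33% to 6.22% in dKO-E. Within ctrl the members' share stood apart by batch: the 4 libraries of batch 1 were at 5.15% to 5.49% and the 3 of batch 2 at 4.50% to 4.76%. In batch 1, cKO-E (5.43% to 5.77%) overlapped ctrl and dKO-E (3.92% to 4.79%) lay below it, and in batch 2, cKO-E (5.23% to 5.61%) lay above ctrl and dKO-E (4.51% to 4.80%) overlapped it.

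**Figure D1:**
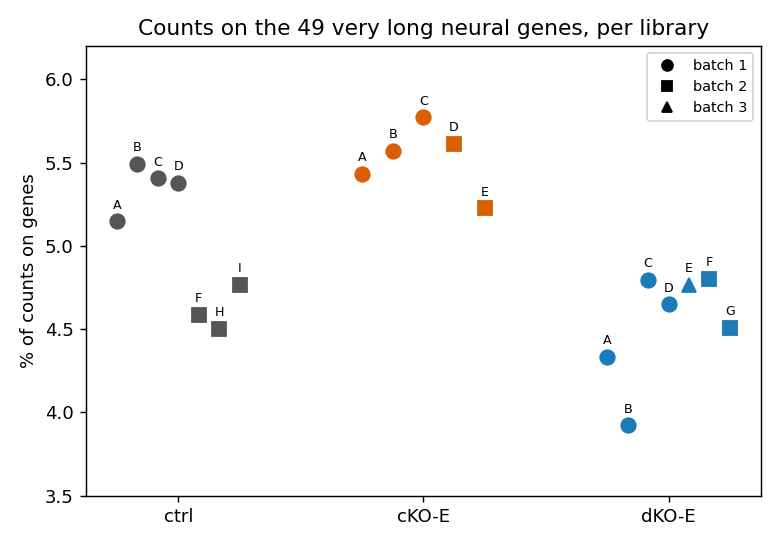
Share of counts on genes that fell on the 49 very long neural genes, in percent, for each library (letters) by group, with the marker shape giving the batch. The cKO-E libraries lie between 5.23% and 5.77%, the dKO-E libraries between 3.92% and 4.80%, and the ctrl libraries split by batch around them; the axis does not start at 0.

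The first comparison asked which members changed after deletion of Ino80 alone. All 49 passed the filter on low counts, and 5 were called higher in cKO-E than in ctrl at an adjusted p under 0.001 (edgeR quasi-likelihood test, Benjamini-Hochberg over 11660 genes). They were the N-acetylgalactosaminyltransferase-like gene Galntl6, the contactin gene Cntn5, the neurexin-family gene Cntnap2, the leucine-rich repeat gene Lingo2 and the potassium channel interacting protein gene Kcnip4. Tenm4 alone was lower. The shares of members, 10.2% higher and 2.04% lower, compare with 1.06% and 2.32% of all genes tested. Because the list was chosen with earlier results known, such shares are a description in all 3 comparisons. At an adjusted p under 0.05, 18 members were higher and 3 lower (Tenm4, Gpc6 and Pard3b), against 7.31% and 9.88% of all genes. The median log2 fold change was 0.23 over the members and 0.02 over all genes tested, and 37 members lay above 0 (75.5%, against 53.4% of all genes tested). The members' median log2 fold change differed between the batches, at 0.06 in batch 1 alone and 0.33 in batch 2 alone. The calls at 0.001 were then 4 higher and 2 lower, and 5 higher and 0 lower. Over all genes, 267 of 12012 and 30 of 10990 were called at 0.001 in these batches, in either direction. With any 1 library left out, all 5 higher calls at 0.001 held, as did 13 of the 18 at 0.05, while Ctnna2, Dlg2, Erbb4, Nrg3 and Ptprd each lost theirs at least once.

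Galntl6 encodes a member of the family of enzymes that start mucin-type O-glycosylation. Its level was 44.6, 61.0 and 81.4 CPM as the lowest, median and highest of 7 ctrl libraries, and 164, 193, 173, 173 and 191 CPM in cKO-E A to E. In dKO-E it was 46.2, 58.9 and 73.8 CPM. Every cKO-E library lay above every other library, and ctrl and dKO-E overlapped. The rise in cKO-E was 3.04-fold (log2 fold change 1.60 ± 0.12, SE, adjusted p = 1.95e-07, edgeR), and the value for dKO-E against ctrl was -0.02 ± 0.13 (adjusted p = 0.940). It was 1.75 within batch 1 and 1.37 within batch 2.

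Cntn5 encodes a contactin, an immunoglobulin-domain adhesion protein anchored to the membrane by a lipid, that acts in axon and synapse formation. The ctrl libraries ran from 282 through a median of 291 to 331 CPM, and the cKO-E libraries stood at 539, 572, 621, 602 and 585 CPM. The dKO-E libraries ran from 248 through 293 to 320 CPM. The cKO-E libraries were again separate from all others, with little spread. The rise in cKO-E was 1.97-fold (0.98 ± 0.06, adjusted p = 1.93e-08, edgeR), with 0.97 in each of the batches taken alone, and dKO-E against ctrl gave -0.08 ± 0.06 (adjusted p = 0.428).

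Cntnap2 encodes an axonal adhesion protein that clusters potassium channels. Its level was 160, 182 and 232 CPM in ctrl, 288, 304, 357, 314 and 289 in cKO-E and 144, 166 and 206 in dKO-E, where the 3 values are the lowest, median and highest. The cKO-E libraries did not overlap the other groups. The log2 fold change was 0.72 ± 0.08 in cKO-E (edgeR, adjusted p = 1.13e-05) and, for dKO-E, -0.15 ± 0.08 (adjusted p = 0.218), both against ctrl.

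Lingo2, a transmembrane leucine-rich repeat protein of synapses, was at 65.8, 76.4 and 103 CPM in ctrl and at 42.5, 68.1 and 72.5 CPM in dKO-E. In cKO-E it was at 134, 149, 255, 151 and 143 CPM, with cKO-E C far above the others. All cKO-E libraries lay above all ctrl libraries, and the log2 fold change of 1.04 ± 0.15 passed the threshold (adjusted p = 1.77e-04, edgeR). In batch 1 alone it was 1.00 with an adjusted p of 0.00251. Kcnip4, which binds A-type potassium channels, was at 46.1, 62.0 and 77.7 CPM in ctrl, at 137, 100, 144, 94.4 and 106 CPM in cKO-E and at 46.2, 78.5 and 87.0 CPM in dKO-E. The cKO-E libraries were separate, with a log2 fold change of 0.90 ± 0.12 (adjusted p = 7.81e-05, edgeR). Its adjusted p was 0.00241 in batch 2 alone and 0.00144 without the 4 libraries that had over 10% of reads outside genes (ctrl H and I, cKO-E A and E).

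Tenm4, a large transmembrane protein that binds latrophilins across the synapse, went the other way and was chosen for its values here after they were seen. It stood at 3264, 3634 and 3946 CPM in ctrl, at 2404, 2960, 2844, 2752 and 2765 CPM in cKO-E and at 2674, 2979 and 3166 CPM in dKO-E. No library of either mutant reached the lowest ctrl library. The log2 fold change was -0.39 ± 0.06 in cKO-E (edgeR, adjusted p = 1.77e-04), whereas dKO-E gave -0.28 ± 0.05 (adjusted p = 8.48e-04). The call in cKO-E held with any 1 library left out but was lost in batch 2 alone (-0.29, adjusted p = 0.0364) and with litter as a block (-0.35, adjusted p = 0.00181). That in dKO-E was lost in each batch taken alone (-0.30 with an adjusted p of 0.0100, and -0.28 with 0.0302), with litter as a block (-0.30, adjusted p = 0.0404) and on leaving out any of 12 of the 14 libraries, all but ctrl H and dKO-E A. All of these values stayed under 0.05. Both comparisons use the same ctrl libraries.

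**Figure D2:**
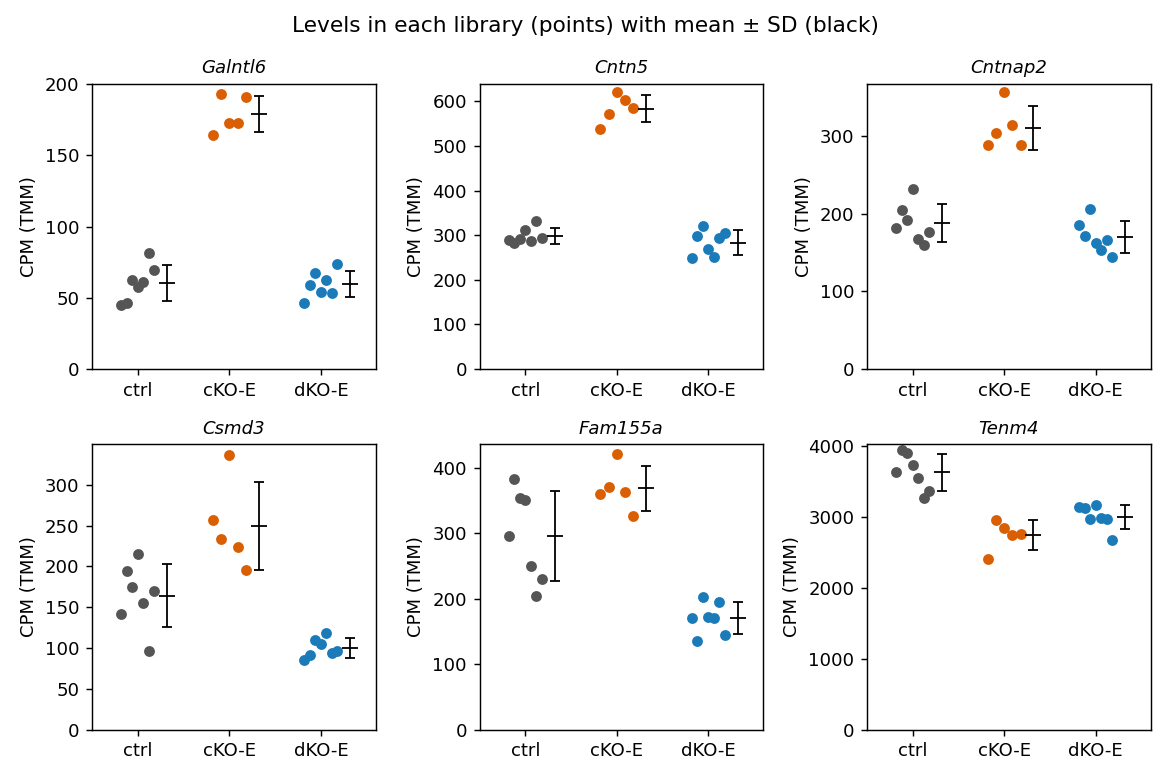
Level in each library in CPM with TMM factors (vertical axes from 0) for 6 members, by group, with the mean ± SD in black beside the points. Galntl6, Cntn5 and Cntnap2 are high in cKO-E alone, Csmd3 and Fam155a are lowest in dKO-E, and Tenm4 is lower in both mutants than in ctrl.

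By role, the 18 members called higher in cKO-E at 0.05 were 7 synaptic organisers and receptors, 3 ion channel partners, 2 cadherin and catenin genes, 2 guidance and neuregulin genes, 2 enzyme genes, 1 scaffold gene and 1 immunoglobulin-domain adhesion gene. Of the 11 synaptic organisers and receptors, 7 were higher at an adjusted p under 0.05 (Lingo2, Nrxn3, Cntnap2, Csmd3, Il1rapl1, Lrp1b and Ptprd) and 1, Tenm4, was lower, with a median log2 fold change of 0.52. The Ptprd call (0.41, adjusted p = 0.0232, edgeR) was lost without cKO-E A, B, C or D, and the Csmd3 call was lost in batch 2 alone (0.57, adjusted p = 0.0974). The neurexin gene Nrxn3, a presynaptic organiser, had 1.02 ± 0.26 (adjusted p = 0.0115, edgeR), and the interleukin-1 receptor accessory protein-like gene Il1rapl1 0.59 ± 0.15 (adjusted p = 0.0124). Of the 5 ion channel partners, 3 were higher: Dpp10 (1.01 ± 0.23), Kcnip4 and Fgf12 (0.80 ± 0.17). The other two, Fgf14 (0.40 ± 0.13, adjusted p = 0.0515) and Fam155a (0.32 ± 0.12, adjusted p = 0.0878), did not pass. The cadherin and catenin group had 2 of 4 higher, the protocadherin gene Pcdh9 (0.32 ± 0.08) and Ctnna2 (0.36 ± 0.11). The Ctnna2 call was lost without cKO-E A, B, C or D or without ctrl F or I.

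Among the 7 guidance, migration and neuregulin genes, the receptor gene Erbb4 (1.03 ± 0.28, adjusted p = 0.0158) and its ligand gene Nrg3 (0.49 ± 0.14, adjusted p = 0.0210, edgeR) were higher. Both calls were lost without cKO-E C, and that of Nrg3 also without cKO-E A. Dcc (0.07 ± 0.07), the reelin adaptor gene Dab1 (0.06 ± 0.06), Nrg1 (0.05 ± 0.10), Auts2 (-0.10 ± 0.06) and Astn2 (-0.12 ± 0.11) did not pass. The postsynaptic scaffold gene Dlg2 was higher (0.55 ± 0.15), a call lost without cKO-E C or D, and Magi2 did not pass (0.04 ± 0.09). Of 5 immunoglobulin-domain adhesion genes, Cntn5 alone passed, with Ntm at 0.57 ± 0.22, Opcml at 0.37 ± 0.18, Cadm2 at 0.07 ± 0.08 and Lsamp at -0.01 ± 0.10.

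Of 8 enzyme genes, Galntl6 and the ADP-ribosylhydrolase gene Macrod2 (0.23 ± 0.05, adjusted p = 0.00794, edgeR) were higher, the latter with an adjusted p of 0.229 in batch 2 alone and 0.0568 with litter as a block. Wwox (0.03 ± 0.07), Prkg1 (0.01 ± 0.07), Pde4d (-0.06 ± 0.13), Fhit (-0.14 ± 0.09), Agbl4 (-0.14 ± 0.16) and Naaladl2 (0.10 ± 0.14) did not pass. The glypican gene Gpc6, a heparan sulfate proteoglycan, was lower (-0.41 ± 0.08, adjusted p = 0.00253), and so was the polarity gene Pard3b (-0.43 ± 0.12, adjusted p = 0.0174), whose call was lost without cKO-E A, B or C. Gpc5 (0.06 ± 0.11), the dystrophin gene Dmd (0.04 ± 0.10), the sarcoglycan gene Sgcz (0.32 ± 0.20), Ccser1 (0.04 ± 0.08) and Thsd7b (0.07 ± 0.09) did not pass. The last members of their groups, Csmd1 (-0.22 ± 0.16), Tenm3 (-0.17 ± 0.08), Tenm2 (-0.01 ± 0.08), Cdh13 (0.26 ± 0.19) and Ctnna3 (0.51 ± 0.22), did not pass either.

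**Figure D3:**
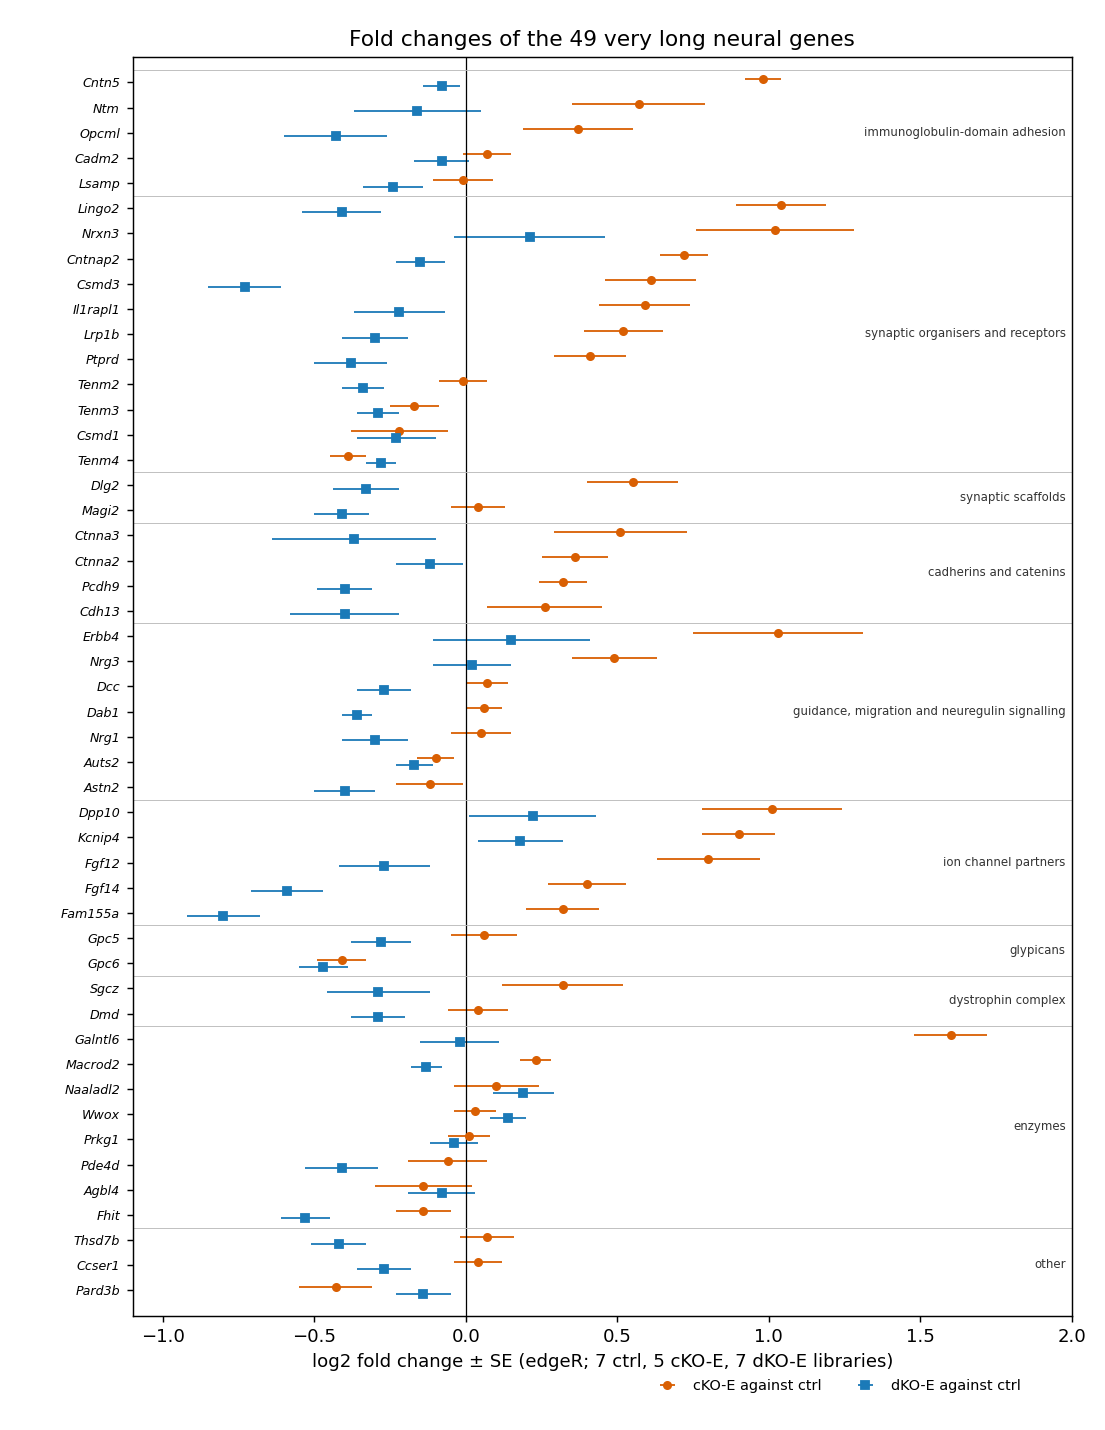
Log2 fold change against ctrl with a standard error derived from the edgeR F statistic for each of the 49 members, grouped by role, for cKO-E (circles) and dKO-E (squares). In cKO-E 37 members lie above 0, up to 1.60 for Galntl6, and in dKO-E 42 lie below 0, down to -0.80 for Fam155a. Of all genes tested, 53.4% lie above 0 in cKO-E and 51.4% in dKO-E. Both comparisons use the same 7 ctrl libraries.

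Markers of some cell types also differed between the groups, and their part in the result was not tested. The summed level of 9 interneuron markers was 9.95 to 92.8 CPM in ctrl, 69.8 to 129 in cKO-E and 31.3 to 74.8 in dKO-E. That of 7 Cajal-Retzius markers was 534 to 672, 852 to 986 and 463 to 649 CPM, and that of 13 microglia markers was 8.87 to 19.4, 36.6 to 46.8 and 7.29 to 12.1 CPM. Of the microglia markers, Itgam was at 0 in all libraries, and Tmem119 in all of ctrl and dKO-E. The 15 neuron markers summed to 3534 to 5581 CPM in ctrl, 4414 to 5392 in cKO-E and 3161 to 4421 in dKO-E, with Neurod1 and Tubb3 at 0. They followed the batches in ctrl, at 4807 to 5581 CPM in batch 1 and 3534 to 3904 in batch 2, and the interneuron markers did so too, at 59.0 to 92.8 against 9.95 to 32.8 CPM. The 10 progenitor markers summed to 2081 to 2244 CPM in ctrl, 1617 to 2120 in cKO-E and 1815 to 2374 in dKO-E, with Sox2 at 0. Intermediate progenitor (345 to 442, 282 to 362 and 277 to 439 CPM), endothelial (41.1 to 79.0, 51.5 to 72.3 and 40.1 to 94.7) and red blood cell markers (43.6 to 114, 52.5 to 80.9 and 29.5 to 109) overlapped between ctrl and each mutant, in the order ctrl, cKO-E and dKO-E.

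The second comparison asked what happened to the members when Trp53 was deleted together with Ino80. None of the 49 was called higher in dKO-E than in ctrl at either threshold, where 0.246% of 11381 genes were higher at an adjusted p under 0.001 and 5.45% at 0.05 (edgeR, and 0 members higher with DESeq2 at 0.001). At an unadjusted p under 0.05, 1 member, Wwox, was higher and 28 were lower, with no share over all genes at hand for that threshold. Called lower at 0.001 were 6 members (12.2%, against 2.34% of all genes), namely Csmd3, Fam155a, Dab1, Fhit, Gpc6 and Tenm4. At 0.05, 20 members were lower (40.8%, against 10.01% of all genes). The median log2 fold change was -0.28 over the members and 0.01 over all genes, and 42 of 49 members lay below 0. The share above 0 was 14.3% of members and 51.4% of all genes tested. These calls depended on the libraries and the fit. Litter 1 gave 2 ctrl and 3 dKO-E libraries, and with litter as a block 0 members were lower at 0.001 and 14 at 0.05, with 37 genes called in all at 0.001 against 294 without the block. At 0.05 the litter block gave 585 genes called in all. Scaled by total counts, 1 member was lower at 0.001, and 13 were lower and 1 higher at 0.05. Of 11381 genes, 198 and 2477 were then called in either direction. In batch 1 alone the median was -0.36 with 0 members higher and 26 lower at 0.05, but in batch 2 alone it was -0.05 with 4 higher and 2 lower. Over all genes, 1413 of 12087 were called at 0.05 in batch 1 alone and 356 of 11004 in batch 2 alone, in either direction. The 6 calls at 0.001 fell to 3 without ctrl D, dKO-E D, dKO-E F or dKO-E G, and rose to 10 without ctrl H. The 20 calls at 0.05 fell to 13 without ctrl C or ctrl D and rose to 26 without ctrl H. Of the 6, Fam155a, Dab1 and Fhit held at 0.001 with any 1 library left out, and none was called at 0.001 in both batches taken alone.

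Csmd3, a very large complement-control-related membrane protein, was at 96.3, 170 and 215 CPM in ctrl and 85.5, 95.9 and 119 CPM in dKO-E as the lowest, median and highest. In cKO-E it was at 257, 234, 337, 224 and 196 CPM. Of the dKO-E libraries, 4 of 7 lay below every ctrl library, ctrl H being the lowest of its group. The log2 fold change in dKO-E was -0.73 ± 0.12 (adjusted p = 4.90e-04, edgeR). It lost the 0.001 threshold without ctrl B, C, D or I or without dKO-E A, B, C, D, F or G, and gave -0.58 (adjusted p = 0.126) in batch 2 alone. In cKO-E it was 0.61 ± 0.15 (adjusted p = 0.00931).

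Fam155a, the member with the shortest span, encodes a partner of the NALCN sodium leak channel. It was at 204, 296 and 382 CPM in ctrl, at 360, 371, 421, 363 and 326 CPM in cKO-E and at 135, 171 and 203 CPM in dKO-E. All dKO-E libraries lay below all others, and cKO-E overlapped ctrl. The fall in dKO-E was -0.80 ± 0.12 on the log2 scale (adjusted p = 1.62e-04, edgeR), and in batch 2 alone it was -0.41 (adjusted p = 0.0964).

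The other members called lower in dKO-E at 0.001 were mostly abundant. Dab1, which carries the reelin signal into migrating neurons, went from 1189 ± 94.0 CPM (SD, n = 7) in ctrl to 931 ± 58.1 (n = 7) with no overlap between the groups, a log2 fold change of -0.36 ± 0.05 (adjusted p = 1.81e-04, edgeR). Neither batch alone gave the call (adjusted p = 0.00347 and 0.0783). Gpc6 went from 2145 ± 250 to 1555 ± 160 CPM (-0.47 ± 0.08, adjusted p = 3.82e-04), with 6 of 7 dKO-E libraries below all ctrl libraries, and was called in batch 2 alone (-0.64, adjusted p = 9.77e-04) but not in batch 1 alone (-0.34, adjusted p = 0.0296), and not without ctrl D or dKO-E A, D, E, F or G. Fhit, a diadenosine triphosphate hydrolase gene at a fragile site, went from 88.9 ± 12.7 to 63.1 ± 3.99 CPM (-0.53 ± 0.08, adjusted p = 2.33e-04), with an adjusted p of 4.94e-04 in batch 1 alone and 0.246 in batch 2 alone.

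At an adjusted p under 0.05 the lower members in dKO-E included 6 of the 11 synaptic organisers and receptors (Csmd3, Lingo2, Ptprd, Tenm2, Tenm3 and Tenm4), both scaffold genes (Dlg2 -0.33 ± 0.11, Magi2 -0.41 ± 0.09), and 2 of 5 ion channel partners (Fam155a and Fgf14, -0.59 ± 0.12). Of the guidance genes, Dcc (-0.27 ± 0.09), Dab1 and Astn2 (-0.40 ± 0.10) were lower. Pcdh9 (-0.40 ± 0.09), Dmd (-0.29 ± 0.09), Pde4d (-0.41 ± 0.12), Ccser1 (-0.27 ± 0.09) and Thsd7b (-0.42 ± 0.09) were lower as well. Of the 20 members called at 0.05, 13 held with any 1 library left out, and Ccser1, Dcc, Dlg2, Dmd, Lingo2, Pde4d and Ptprd did not. In both batches taken alone 2, Gpc6 and Tenm4, were under 0.05. Of the 5 immunoglobulin-domain adhesion genes none passed, with values from -0.43 (Opcml) to -0.08 (Cntn5 and Cadm2). Members above 0, none of which passed, were Dpp10 (0.22 ± 0.21), Nrxn3 (0.21 ± 0.25), Naaladl2 (0.19 ± 0.10), Kcnip4 (0.18 ± 0.14), Erbb4 (0.15 ± 0.26), Wwox (0.14 ± 0.06) and Nrg3 (0.02 ± 0.13). The remaining members lay between -0.40 (Cdh13) and -0.02 (Galntl6) without passing.

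The third comparison set the mutants against each other and so addressed the effect of Trp53 in Ino80-deleted cortex. Of the 49 members, 36 had a lower level in the double than in the single mutant at an adjusted p under 0.05 (73.5%, against 9.42% of 11746 genes) and 1, Pard3b, was higher (2.04%, against 5.59%). At 0.001, 18 were lower and 0 higher, against 2.75% and 0.383% of all genes. With any 1 library left out, 31 of the 36 held, and Ccser1, Ctnna3, Dcc, Gpc5 and Pde4d did not. In both batches taken alone, 19 of the 36 were under 0.05. The median log2 fold change was -0.46, against 0.02 over all genes, and 44 of 49 members lay below 0. Above 0 lay 10.2% of members and 54.1% of all genes tested. Within batch 1 alone 29 were lower and 1 higher, where 1253 of 12198 genes were called in either direction. Within batch 2 alone 21 were lower and 0 higher, where 305 of 10821 genes were called. The mutants came from different litters throughout, so litter and genotype cannot be told apart here. The Pard3b call (0.30 ± 0.10, adjusted p = 0.0484, edgeR) was lost without cKO-E A, B or C or without dKO-E B, E, F or G.

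The differences were largest for Galntl6 (-1.61 ± 0.09, adjusted p = 4.32e-10), Lingo2 (-1.43 ± 0.15), Csmd3 (-1.33 ± 0.11), Fam155a (-1.11 ± 0.09), Fgf12 (-1.07 ± 0.18) and Cntn5 (-1.05 ± 0.07, adjusted p = 6.76e-09, edgeR). In each of these all 7 dKO-E libraries lay below all 5 cKO-E libraries, as they also did in other called members such as Pcdh9 and Ptprd. These genes were picked by the same difference. The share of all genes whose groups separate was not computed, here or for the other genes described. By role, 10 of 11 synaptic organisers and receptors lay below 0 and 8 were called. All 5 ion channel partners, all 4 cadherins and catenins, both scaffold genes and both dystrophin-complex genes were called lower. So were 5 of 7 guidance, migration and neuregulin genes and 3 of 5 immunoglobulin-domain adhesion genes. Of the rest, 4 of 8 enzyme genes, 1 of 2 glypican genes and 2 of 3 other genes were called lower. Over all genes the share was 9.42%. In batch 2 alone Fgf12 (adjusted p = 0.124, edgeR), Kcnip4 (0.313), Dlg2 (0.587), Magi2 (0.0524), Dmd (0.162) and Sgcz (0.113) did not pass 0.05. Dmd did not pass in batch 1 alone either (0.0534). Ctnna3, with 3 to 24 counts per library in dKO-E, was not tested in batch 2 alone and had 0.179 in batch 1 alone.

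Further members of that comparison were among the 12 with the smallest p-values. Fgf14, an intracellular modulator of sodium channels, was at 324, 462 and 578 CPM in ctrl, at 580, 547, 799, 543 and 534 CPM in cKO-E and at 235, 330 and 357 CPM in dKO-E, where cKO-E and dKO-E did not overlap (-0.98 ± 0.11, adjusted p = 6.57e-06, edgeR). Pcdh9, a homophilic adhesion protein, was at 1905, 2206 and 2622 CPM in ctrl, at 2707, 2850, 3095, 2680 and 2499 CPM in cKO-E and at 1363, 1706 and 2067 CPM in dKO-E (-0.71 ± 0.09, adjusted p = 2.24e-05). Lrp1b, a large endocytic receptor, was at 131, 211 and 236 CPM, at 252, 240, 337, 224 and 341 CPM and at 132, 169 and 181 CPM in the same order (-0.81 ± 0.10, adjusted p = 2.38e-05). In all 3 genes the ctrl libraries lay between or across the mutants.

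Ptprd, the member with the longest span, encodes a receptor tyrosine phosphatase that organises synapses. It was at 1651, 2322 and 2874 CPM in ctrl, at 2952, 3185, 3479, 2787 and 2537 CPM in cKO-E and at 1242, 1882 and 2061 CPM in dKO-E (-0.78 ± 0.10, adjusted p = 4.14e-05, edgeR). Il1rapl1, which Ptprd binds across the synapse, was at 219, 348 and 501 CPM, at 532, 522, 704, 564 and 504 CPM and at 231, 337 and 396 CPM (-0.80 ± 0.12, adjusted p = 1.23e-04). In both genes every cKO-E library exceeded every dKO-E library. Kcnip4 differed by -0.71 ± 0.14 (adjusted p = 0.00220) but by -0.34 (adjusted p = 0.313) in batch 2 alone. Cntnap2 differed by -0.86 ± 0.08 (adjusted p = 6.53e-07).

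The members not called between the mutants were Auts2, Astn2, Gpc6, Cadm2, Lsamp, Csmd1, Tenm3 and Tenm4 and the enzyme genes Wwox, Agbl4, Prkg1 and Naaladl2. Their log2 fold changes ran from -0.27 (Astn2) to 0.13 (Tenm4), with SEs between 0.06 and 0.13.

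The change was next related to genomic span over all protein-coding genes tested, as a description across genes of the same libraries. For dKO-E against ctrl the rank correlation with span was -0.24 over 10714 genes, and for dKO-E against cKO-E -0.20 over 11002. For cKO-E against ctrl it was 0.02 over 10911. Among the 49 members alone it was 0.07 (cKO-E against ctrl), 0.04 (dKO-E against ctrl) and -0.06 (dKO-E against cKO-E) and the spans then ran only from 565.3 to 2271 kb. In batch 2 alone the value for dKO-E against ctrl was -0.06. With exon length in place of span the values were -0.17 for dKO-E against ctrl and -0.11 for dKO-E against cKO-E. Span also rank-correlated with the mean level (rho = 0.50 for dKO-E against ctrl), and the change in dKO-E against ctrl rank-correlated with the mean level at -0.18.

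By span class, the median log2 fold change in dKO-E against ctrl was 0.06 under 10 kb, 0.05 at 10 to 30 kb, 0.00 at 30 to 100 kb, -0.08 at 100 to 300 kb, -0.17 at 300 to 500 kb, -0.21 at 500 to 1000 kb and -0.24 at 1000 kb or more. Of the 59 tested genes of 1000 kb or more, 10 lay above 0 and 18 were called lower at 0.05. Members made up 38 of these 59, with 14 called lower (36.8%), against 4 of the 21 that are no members (19.0%); this difference was not tested. In cKO-E against ctrl the median stayed at 0.01 to 0.02 up to 300 kb and was 0.12, 0.17 and 0.16 in the 3 longest classes. The share of genes called higher in cKO-E at 0.05 went from 3.19% under 10 kb to 33.1% at 500 to 1000 kb and 39.0% at 1000 kb or more. The share called lower went from 5.16% under 10 kb to 18.8% at 500 to 1000 kb and was 8.47% at 1000 kb or more (5.26% of members and 14.3% of others). The median ctrl level in these classes was 15.4 CPM, 245 CPM and 210 CPM, and a larger count gives a more precise fold change. In dKO-E against cKO-E the classes went from 0.06 under 10 kb to -0.41 at 1000 kb or more, where 40 of 59 genes were called lower (29 of 38 members and 11 of 21 others).

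**Figure D4:**
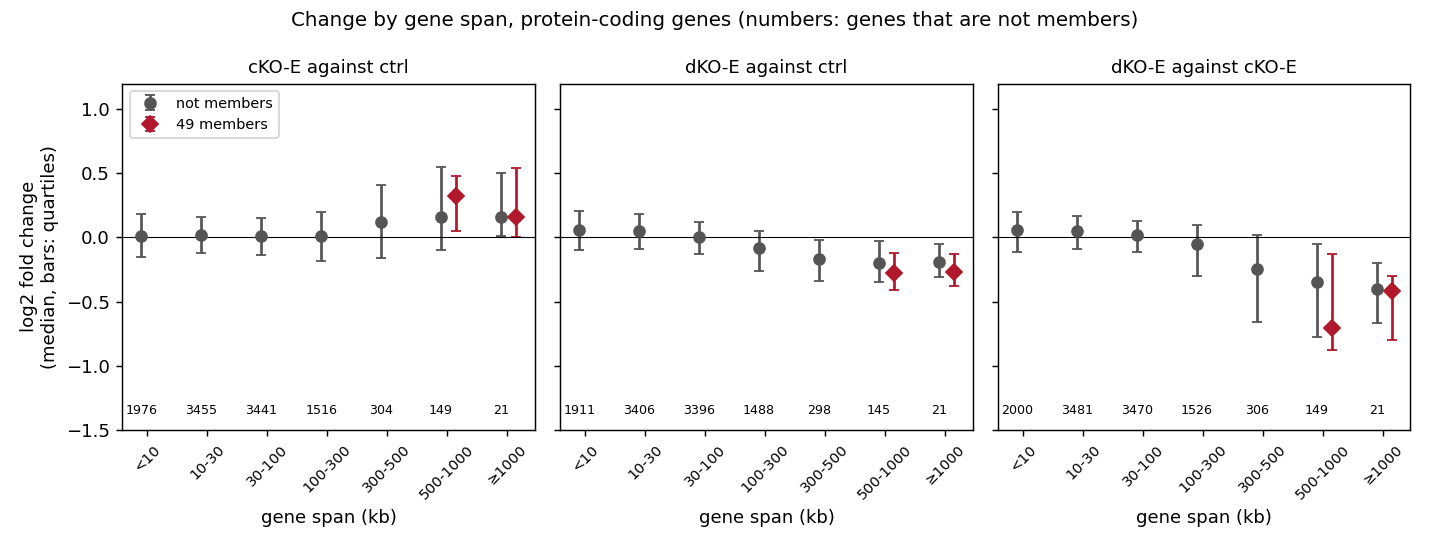
Median log2 fold change (bars are quartiles) by class of genomic span in kb for protein-coding genes, in the 3 comparisons, with the 49 members (diamonds) beside genes that are not members (circles, numbers of genes below). The medians of the longest classes lie above 0 in cKO-E against ctrl and below 0 in the other comparisons, for members and other genes alike.

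The other very long genes, 181 protein-coding genes of 500 kb or more that are no members, had medians of the same sign as the members in each comparison. In cKO-E against ctrl 114 of 170 lay above 0. Below 0 lay 132 of 166 in dKO-E against ctrl and 133 of 170 in dKO-E against cKO-E. In cKO-E against ctrl 170 were tested, with a median log2 fold change of 0.16, 17 higher and 15 lower at 0.001, against 1.06% and 2.32% of all genes. In dKO-E against ctrl 166 were tested, with a median of -0.20, 0 higher and 14 lower at 0.001 (0.246% and 2.34% of all genes). In dKO-E against cKO-E the median was -0.36, with 8 higher and 90 lower at 0.05 (5.59% and 9.42% of all genes). Those with the smallest p-values in cKO-E included Lrmda, a melanocyte differentiation gene (1.77 ± 0.15), and Cntn4, a contactin related to Cntn5 (1.61 ± 0.23), above ctrl. The nuclear receptor gene Rora lay below ctrl in both mutants (edgeR, -0.99 ± 0.08 for the single mutant with an adjusted p of 2.98e-07 and -0.96 ± 0.07 for the double mutant with an adjusted p of 1.72e-08), as did Lrba (-0.56 ± 0.07 and -0.76 ± 0.06). Long genes were thus found on both sides of 0 in cKO-E.

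Paralogs of the members offered genes of like function and other spans. Of 88 listed, 87 were found. The 32 with a span of 300 kb or more had median log2 fold changes of 0.16 in cKO-E against ctrl, -0.21 in dKO-E against ctrl and -0.34 in dKO-E against cKO-E. Of the 55 with a shorter span, 43 were tested in the comparisons of cKO-E with either other group and 42 in dKO-E against ctrl, with medians of 0.04, -0.06 and -0.09. Among all paralogs tested in cKO-E, 5 of 75 were higher at 0.001, including Cntn4 and the Cntnap2 relative Cntnap5a (1.30 ± 0.22, adjusted p = 5.53e-04), and 3 were lower, including the Pard3b relative Pard3 (-0.68 ± 0.09, adjusted p = 9.16e-05) and the Kcnip4 relative Kcnip1 (-0.85 ± 0.13, adjusted p = 3.17e-04, edgeR). Over all genes the shares were 1.06% and 2.32%. In dKO-E 0 of 74 passed 0.001, with 3 higher and 19 lower at 0.05, where 5.45% and 10.01% of all genes were called. Between the mutants the contactin gene Cntn1 was lower in dKO-E (-1.42 ± 0.16).

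Of 28 binding partners of the members, 27 were tested in cKO-E against ctrl, and 4 were higher and 0 lower at 0.001, against 1.06% and 2.32% of all genes. They were Reln, whose protein signals through Dab1 (0.62 ± 0.07, adjusted p = 1.13e-05), the latrophilin gene Adgrl3, a teneurin receptor (1.06 ± 0.15), the sodium channel gene Scn3a (0.82 ± 0.13) and the netrin receptor gene Unc5c (1.21 ± 0.20, adjusted p = 5.60e-04, edgeR). Reln is also a Cajal-Retzius marker. In dKO-E against ctrl 0 of 26 passed 0.001 and 3 were lower at 0.05, a share near the 10.01% of all genes. Of 7 topoisomerase genes, 0 passed 0.001 in the 3 comparisons (edgeR). At 0.05, 1 fell in cKO-E and 2 fell in dKO-E, against 9.88% and 10.01% of all genes, and 1 was higher in the double than in the single mutant, against 5.59%.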

How the data were processed

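Before deposit, the authors used cutadapt (1.13) for adapters, STAR (2.5.2a) for alignment to GRCm38/mm10, UMI-tools (0.5.3) for duplicates and htseq-count (HTSeq 0.6.1p1, intersection-nonempty mode) for counting. The deposited files hold raw counts per gene and library. Feature type and strand setting are not given in the sources used here. Rows that name no gene were left out of library sizes (6.00% to 15.1% of uniquely placed reads outside genes, 2.16% to 2.45% ambiguous). Identifiers were matched to GENCODE M21 (51633 of 51912 found), from which span and exon length were taken. Promoter windows are from RefSeq.

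Each comparison was fitted on all genes of its groups with edgeR (4.0.16, R 4.3.3) using filterByExpr (minimum count 10), TMM factors, the quasi-likelihood test and Benjamini-Hochberg adjustment. Calls against ctrl used a false discovery rate of 0.001, with 0.05 beside it, and calls between mutants 0.05. CPM use TMM factors over all 19 libraries. Values per library are given for Cntn5, Galntl6 and Csmd3, for members called in any comparison (at most 12, by smallest p) and for the longest and shortest members. From the other lists, genes called at 0.001 were named, at most 5 per list and direction. The members and lists were chosen with earlier results of these data known. The list of very long genes that are no members came from the annotation alone.

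On simulated counts with known changes, 81% of changes of 0.5 on the log2 scale were recovered at 0.05 for cKO-E against ctrl (11548 genes), 88% for dKO-E against ctrl (11268) and 73% for dKO-E against cKO-E (11591), and 100% of changes of 1. The changes were placed only in genes above a minimum mean level, and the counts were drawn without batch or litter effects. The rates therefore do not cover members with few counts, such as Ctnna3, or differences between batches and litters. Each library was 1 embryo. No 2 libraries of a group agreed within sampling noise (chi-square per gene 1.42 or more, 52 pairs). The letters in the labels were not used as pairs in the main fits: over 14 pairs with the same letter, deviations from the group means correlated between -0.51 and 0.26. Alternatives were the likelihood-ratio test, DESeq2 (1.42.0), RLE factors, total counts, other filters, batch, litter and letter as terms, each batch alone and each library left out.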

Additional observations from a re-analysis of the deposited data

Results flagged for a closer look

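Over 153 groups of values (49 members and 2 shares of counts, in 3 groups of libraries), 11 held a library set apart from the others by a gap above Dixon's 95% critical value, where about 1 in 20, or 7.65, would be flagged by chance. All 11 were single members. In cKO-E, library C was the one set apart in each of 4 flags, with Lingo2 at 255 CPM (134 to 151 in the others), Fgf14 at 799 CPM (534 to 580), Fgf12 at 85.4 CPM (42.3 to 51.9) and Thsd7b at 115 CPM (126 to 130). In ctrl, library H was low for Csmd1 (596 CPM against 1064 to 1409) and Dmd (175 CPM against 249 to 297), and library F was low for Fhit (61.7 CPM against 88.1 to 99.0). In dKO-E, library G was low for Tenm4 (2674 CPM against 2969 to 3166) and Tenm2 (856 CPM against 1054 to 1116) and high for Naaladl2 (49.6 CPM against 34.3 to 40.7), and library B was low for Fgf12 (15.1 CPM against 26.0 to 33.7).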

How the results depend on the processing

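Member counts against ctrl at an adjusted p under 0.001 and between mutants at 0.05 were recomputed under every alternative. For cKO-E against ctrl, the 5 higher became 13 without the filter, 13 with batch as a covariate and 18 at 0.05. All genes called in either direction went from 394 to 658, 659 and 2004 in the same order. The 1 lower became 0 with litter as a block or in batch 2 alone, 2 with DESeq2, the likelihood-ratio test or batch 1 alone, and 3 without the filter, with batch as a covariate or at 0.05. Leaving out 1 library gave 5 to 7 higher and 1 to 2 lower (2 without ctrl B). For dKO-E against ctrl, the 6 lower became 11 with DESeq2, 3 in batch 1 alone, 1 in batch 2 alone, 1 with total counts, 0 with litter as a block and 20 at 0.05, and 3 to 10 with 1 library left out (3 without ctrl D, dKO-E D, F or G, 10 without ctrl H). All genes called in that comparison went from 294 to 546 (DESeq2), 87 (batch 1), 14 (batch 2), 198 (total counts), 37 (litter) and 1759 (at 0.05). Between mutants, the 36 lower became 21 in batch 2 alone and 18 at 0.001, and 33 to 36 with 1 library left out. All genes called between mutants went from 1763 to 305 in batch 2 alone and 368 at 0.001. The 1 higher became 0 with RLE factors, in batch 2 alone or at 0.001, 2 with total counts, and 0 to 1 with 1 library left out. Without the 4 libraries with over 10% of reads outside genes, an alternative chosen after seeing the data, the counts were 4 higher and 1 lower, 0 and 8, and 1 and 34 in the 3 comparisons. All genes then called in either direction were 202 of 11946, 270 of 11871 and 1454 of 11832.

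The labels give no meaning to the letters. Some libraries with the same letter also share a litter and a batch: ctrl A and dKO-E A, and ctrl B and dKO-E B, are all from litter 1 and batch 1. With the letter as a replicate block, cKO-E against ctrl gave 8 members higher and a median log2 fold change of 0.14, dKO-E against ctrl 1 lower, and dKO-E against cKO-E 0 higher and 34 lower. All genes then called in either direction were 341 of 11660, 37 of 11381 and 1416 of 11746.

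The rank correlation with span was 0.08 in batch 2 alone for cKO-E against ctrl, where its sign was not fixed by leaving out a library (-0.00 to 0.05). For dKO-E against ctrl it was -0.14 without the filter, -0.06 in batch 2 alone and -0.17 with exon length (-0.26 to -0.20 with 1 library left out). For dKO-E against cKO-E it was -0.11 without the filter, -0.14 in batch 2 alone and -0.11 with exon length (-0.22 to -0.18). The members' median, 0.23 in cKO-E, was 0.06 in batch 1 alone and 0.33 in batch 2 alone (0.15 to 0.25 with 1 library left out). In dKO-E against ctrl it was -0.38 with litter as a block, -0.36 and -0.05 in batches 1 and 2, and -0.18 with total counts (-0.30 to -0.24), where total counts moved all genes by 0.095. Between mutants it was -0.37 in batch 2 alone (-0.49 to -0.40). The cause of these differences was not tested. Of 876 values of the 12 named members under alternatives, 846 kept direction and side of the threshold (0.001 against ctrl, 0.05 between mutants), 20 lost it, 10 gained it and 0 reversed. Those 12 were picked for the smallest p-values in these data, and values that failed the threshold in both settings count as kept. The 846 therefore do not measure how stable the members' calls are. A litter block could not be fitted between mutants.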
